A study of Homo sapiens with 18 samples.

Results

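The gene and exon levels of THP-1 and U937, both human leukaemia lines of monocytic type, were compared in the state without a differentiating agent. The comparison holds the 3 THP-1 arrays and the 3 U937 arrays of cells kept for 3 days with dimethyl sulfoxide (DMSO), the vehicle, which are 6 of the 18 arrays of the series. The arrays of each group were taken by their titles. The other 12 arrays, 3 each, are THP-1 and U937 cells given PMA (phorbol 12-myristate 13-acetate) at 30 nM over the same 3 days, a protein kinase C activator that drives such cells towards macrophages, and HL60 cells, a promyelocytic-type line, with PMA or DMSO. Each line is 1 established cell line, so a difference between THP-1 and U937 is a difference between these cultures and not between kinds of leukaemia. Within a group the arrays are numbered in the labels, with no word on separate cultures. The p-values thus reflect the scatter among these arrays, and that scatter may be technical.

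As background, THP-1 carries a fusion of KMT2A (MLL) with MLLT3 (AF9), and U937 a fusion that joins MLLT10 (AF10) to a clathrin assembly gene. Both kinds of fusion act through the histone methyltransferase DOT1L and keep the later genes of the HOXA cluster on, which holds cells in a progenitor-like state. Monocytic lines of this kind still make granule enzymes of the promyelocyte while they carry receptors of the monocyte, and lines differ in how far each programme is expressed.

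Total RNA was read on Affymetrix human exon arrays, which measure each gene through many probe sets, most of them within single exons. A gene's value is the mean log2 intensity of its probe sets, and 16267 genes with at least 3 probe sets were compared. A difference is THP-1 minus U937 on the log2 scale, so that 1 unit is 2-fold. Levels below 5.17, the 30th percentile of the probe-set values, are called near background here. Before normalization the medians of the THP-1 arrays ran from 6.45 to 6.71 and those of the U937 arrays from 6.72 to 6.95. Correlations over all probe sets were 0.9378 to 0.9782 within a line and 0.8747 to 0.9127 between the lines. Over the genes, 73.7% of the variance among the 6 arrays separated the lines, and a second component with 20.5% set both arrays numbered 3 apart from the other 4. Exactly tied values numbered 78 to 99 for pairs of THP-1 arrays, 82 for U937 arrays 1 and 3, and 0 to 5 between lines. The U937 array numbered 2 stood apart, with only 5 and 3 tied values with U937 arrays 1 and 3. If the lines were normalized as separate sets, line and set cannot be told apart.

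Of the 16267 genes, 4429 (27.2%) differed between THP-1 and U937 at an adjusted p under 0.05 in limma's test. In THP-1, 2184 genes (13.4%) were higher and 2245 (13.8%) lower. At least a 2-fold difference was reached by 1033 of the higher and 826 of the lower genes, and at least a 16-fold difference by 70 and 19. The 3 arrays of one line lay beyond all 3 of the other for 41.7% of the genes, with THP-1 above in 19.1% and below in 22.6%. In bulk RNA, fewer cells that express a gene and less of its RNA per cell cannot be told apart. The near-even split depended on the scale: with the values as deposited, 1227 genes were higher and 3042 lower, since the median difference over all genes moved to -0.311 from -0.0812. The medians of gene lists below are to be read beside -0.0812, and list medians close to 0 can turn sign under the deposited scale. Shares called in a list are to be read beside the 27.2% of all genes.

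Both lines had the RNA of some markers of monocytic cells. CD33, a myeloid Siglec, averaged 8.44 ± 0.19 in THP-1 and 8.47 ± 0.32 in U937 (means ± SD of 3 arrays here and below), FCER1G, the Fc receptor gamma chain, 8.66 ± 0.13 in THP-1 and 8.64 ± 0.39 in U937, and LYZ, lysozyme, 11.25 ± 0.41 in THP-1 and 11.56 ± 0.97 in U937. None of these 3 genes was called. The monocyte markers CD14, CSF1R and ITGAM averaged 6.41, 7.35 and 5.95 in THP-1. In U937 they averaged 5.39, 5.38 and 5.22, close to the background level of 5.17. CD68 was not among the genes compared. Of markers of other lineages, the T cell receptor chain genes CD3D, CD3E and CD3G, the epithelial genes EPCAM and CDH1 and the fibroblast genes DCN and LUM were near background in both lines, but others were not: 7 of 16 T and NK cell markers, 6 of 9 B cell markers, 6 of 12 erythroid and megakaryocyte markers and 5 of 13 epithelial and fibroblast markers were above the background level in THP-1, against 6, 6, 7 and 7 in U937. Their part in the results was not tested. Of 16 T and NK cell markers, 1 was higher, CD247 by 0.38, a call lost in 10 of 14 alternative settings, and 1 lower. The lower one was NKG7, a granule protein of cytotoxic cells, with 8.58, 8.24 and 8.20 on the THP-1 arrays, against 10.94, 11.13 and 11.13 on the U937 arrays. The U937 arrays all lay above the THP-1 arrays, and the difference was -2.73 ± 0.21 (SE, adjusted p = 3.62e-08). Of 12 erythroid and megakaryocyte markers limma's test called none, against 27.2% of all genes, and 1 had an unadjusted p under 0.05. Of 9 B cell markers 3 (33.3%) were lower in THP-1: CD79A at -0.70, EBF1 at -0.50 and PAX5 at -0.45, calls lost in 4, 7 and 7 of 15 alternative settings.

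The largest fitted difference was that of CA2, carbonic anhydrase II. It read 11.38, 11.42 and 10.47 on the THP-1 arrays, against 3.70, 3.72 and 3.99 on the U937 arrays. The difference was 7.29 ± 0.32 (SE, adjusted p = 6.01e-11) in log2 units. CA2 was near background in U937, so the order of such differences is not firm. SDCBP, syntenin-1, a PDZ adaptor of membrane traffic, read 10.86, 10.85 and 10.19 on the THP-1 arrays, against 4.26, 4.20 and 4.28 on the U937 arrays. U937 cells were thus near background for a gene that was well measured in THP-1 and, at 10.10, in HL60. The difference was 6.39 ± 0.21 (SE, adjusted p = 3.07e-12).

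ADGRL2, an adhesion G protein-coupled receptor of the latrophilin family, read 10.03, 10.01 and 10.15 on the THP-1 arrays, against 3.72, 3.69 and 3.70 on the U937 arrays. Its relative ADGRL3 differed in the same direction, by 5.21 ± 0.18 (SE, adjusted p = 5.6e-12), and both were near background in HL60, at 3.73 and 4.20. NCAM2, a neural cell adhesion molecule, read 9.27, 9.36 and 9.02 on the THP-1 arrays, against 3.20, 3.31 and 3.38 on the U937 arrays. CD81, a tetraspanin, read 11.24, 11.03 and 11.27 on the THP-1 arrays, against 5.66, 5.85 and 5.71 on the U937 arrays. No U937 array came near the THP-1 arrays for any of these. CD81, above background in both lines, was 43.4-fold higher in THP-1. MCOLN2, an endolysosomal cation channel, was near background in U937 and differed by 5.94 ± 0.39 (SE, adjusted p = 6.83e-09). RUBCNL, an autophagy factor, differed by 6.08 ± 0.17 (SE, adjusted p = 1.05e-12), and CTSL, the lysosomal protease cathepsin L, by 5.19 ± 0.32 (SE, adjusted p = 2.71e-09). TGFBI, a secreted matrix protein induced by TGF-beta, differed by 5.25 ± 0.15 (SE, adjusted p = 1.45e-12). The other genes of the 15 largest were DYNLT5, HMGN3, a nucleosome-binding protein, GGH, which hydrolyses folate polyglutamates, ZNF521, a transcription factor of haematopoietic progenitors, and the homeobox gene ALX1, with differences between 5.35 and 5.78. HMGN3 and GGH had the widest spread, with the THP-1 array numbered 3 lowest: HMGN3 read 9.84, 9.87 and 8.33 on the THP-1 arrays, against 3.76, 3.35 and 3.65 on the U937 arrays, and GGH read 9.17, 9.19 and 7.15 on the THP-1 arrays, against 2.78, 2.88 and 2.59 on the U937 arrays. Arrays that did not overlap between the lines were a condition for all 15.

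**Figure D1:**
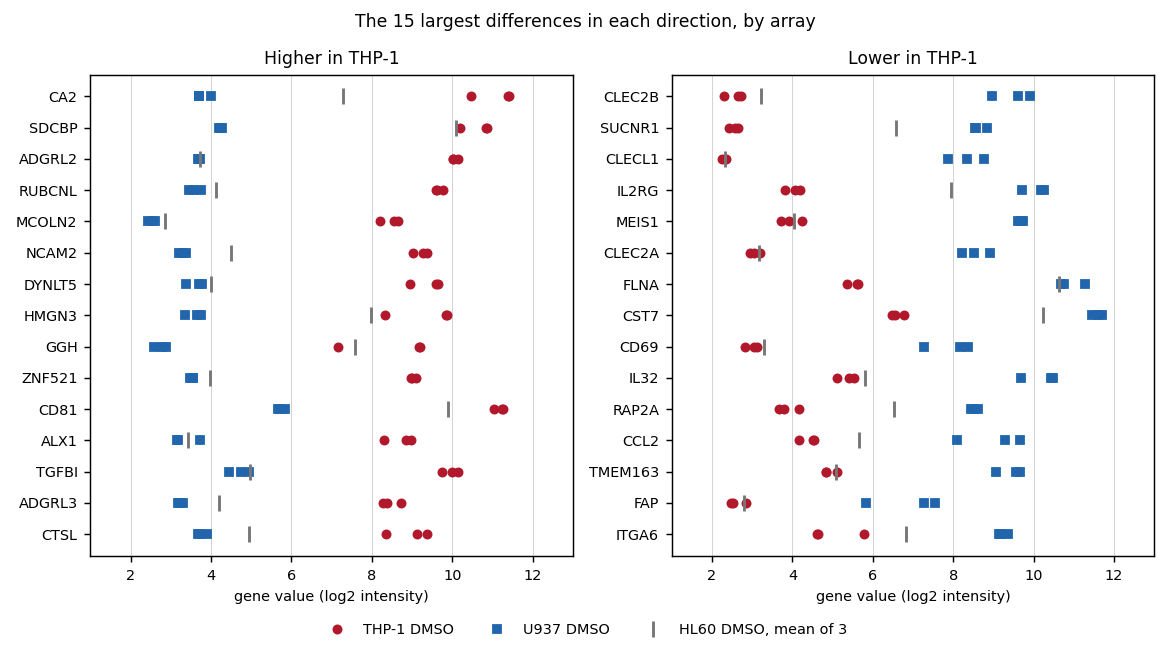
Gene values (log2 intensity) of the 15 genes with the largest difference in each direction, on each of the 3 THP-1 DMSO arrays (circles) and 3 U937 DMSO arrays (squares), with the mean of the 3 HL60 DMSO arrays (bars). Arrays that do not overlap between the lines were a condition for choosing the 30 genes. HL60 sits near U937 for some of the genes higher in THP-1 and near THP-1 for others, as ADGRL2 and CD81 show.

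On the other side, C-type lectins of 1 stretch of chromosome 12 led. CLEC2B, the activation-induced lectin that the NK receptor NKp80 binds, read 2.66, 2.30 and 2.72 on the THP-1 arrays, against 9.92, 9.61 and 8.95 on the U937 arrays. CLECL1 read 2.26, 2.34 and 2.32 on the THP-1 arrays, against 8.75, 8.35 and 7.86 on the U937 arrays, and CLEC2A read 3.21, 2.93 and 3.04 on the THP-1 arrays, against 8.92, 8.53 and 8.23 on the U937 arrays. All 3 were near background in THP-1, and the differences were -6.93 ± 0.55 (SE, adjusted p = 6.44e-08), -6.02 ± 0.24 (SE, adjusted p = 2.17e-11) and -5.50 ± 0.26 (SE, adjusted p = 1.25e-10). CD69, an early activation antigen whose gene lies among them, differed by -4.95 ± 0.39 (SE, adjusted p = 5.18e-08) and CLEC12B by -3.12 ± 0.18 (SE, adjusted p = 1.25e-09). The genes between and beside them differed less or not at all: CLEC1B at -0.46, CLEC2D at -0.44 and KLRB1 at -0.51 were called lower, while KLRF1 at -0.32, CLEC9A at -0.25, CLEC1A at 0.15 and CLEC7A at 0.02 were not called. Of these neighbours only CLEC2D was above background, at 5.21 in THP-1 and 5.65 in U937. The rest were near background in both lines, where a difference could hardly show.

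Receptors and cytokines followed. SUCNR1, the succinate receptor, read 2.41, 2.57 and 2.64 on the THP-1 arrays, against 8.54, 8.56 and 8.85 on the U937 arrays. IL2RG, the common gamma chain shared by several interleukin receptors, read 4.07, 4.19 and 3.82 on the THP-1 arrays, against 10.25, 10.17 and 9.70 on the U937 arrays. CCL2, the chemokine that attracts monocytes, read 4.51, 4.16 and 4.53 on the THP-1 arrays, against 9.29, 9.65 and 8.09 on the U937 arrays. The THP-1 arrays lay below the U937 arrays for each of them, as the choice of the 15 required. IL32, a cytokine, differed by -4.85 ± 0.24 (SE, adjusted p = 2.52e-10), ITGA6, the integrin alpha 6 chain, by -4.22 ± 0.43 (SE, adjusted p = 1.02e-06), and CST7, cystatin F, an inhibitor of lysosomal cysteine proteases, by -4.98 ± 0.27 (SE, adjusted p = 5.86e-10). FAP, a membrane serine protease best known from activated fibroblasts, read 2.53, 2.47 and 2.86 on the THP-1 arrays, against 7.54, 7.27 and 5.83 on the U937 arrays, while the fibroblast genes COL1A1 at 5.99 against 6.09, COL3A1 at 5.15 against 5.29 and DCN at 2.97 against 2.91, THP-1 against U937, were not called. RAP2A, a small GTPase, and TMEM163, a zinc transporter, completed the 15 with FLNA and MEIS1, described below.

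Promoters of 3 leading genes from each side are shown for their base composition, chosen after the values were seen. They are among the genes with the largest differences that the RefSeq promoter table (GRCh38.p14) holds. Each is the 250 bases before the gene's start, 5′ to 3′ on the gene's strand, with CG dinucleotides in capitals, and CG reads the same on both strands. ADGRL2 (chr1:81800126-81800375, plus strand), RUBCNL (chr13:46387253-46387502, minus strand) and NCAM2 (chr21:21146912-21147161, plus strand) were higher in THP-1. SUCNR1 (chr3:151873393-151873642, plus strand), IL2RG (chrX:71111578-71111827, minus strand) and MEIS1 (chr2:66434875-66435124, plus strand) were lower.
ADGRL2: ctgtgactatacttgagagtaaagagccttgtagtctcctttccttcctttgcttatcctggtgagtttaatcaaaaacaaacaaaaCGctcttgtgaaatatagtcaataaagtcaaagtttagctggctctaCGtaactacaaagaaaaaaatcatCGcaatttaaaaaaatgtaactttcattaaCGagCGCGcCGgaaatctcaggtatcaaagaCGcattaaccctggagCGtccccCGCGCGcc
RUBCNL: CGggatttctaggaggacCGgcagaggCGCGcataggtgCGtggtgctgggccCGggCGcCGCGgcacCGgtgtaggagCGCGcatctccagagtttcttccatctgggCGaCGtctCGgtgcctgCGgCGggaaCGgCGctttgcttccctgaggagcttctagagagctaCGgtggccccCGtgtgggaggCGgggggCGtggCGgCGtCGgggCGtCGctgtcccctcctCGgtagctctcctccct
NCAM2: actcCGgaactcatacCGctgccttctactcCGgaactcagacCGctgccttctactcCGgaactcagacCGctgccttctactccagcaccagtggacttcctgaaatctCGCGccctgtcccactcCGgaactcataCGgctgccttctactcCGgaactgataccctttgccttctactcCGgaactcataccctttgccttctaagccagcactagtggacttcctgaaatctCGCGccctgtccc
SUCNR1: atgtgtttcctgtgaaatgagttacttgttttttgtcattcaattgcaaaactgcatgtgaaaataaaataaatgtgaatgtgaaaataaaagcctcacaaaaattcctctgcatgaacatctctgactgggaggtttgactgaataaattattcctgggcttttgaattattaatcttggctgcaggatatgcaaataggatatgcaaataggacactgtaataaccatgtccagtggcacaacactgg
IL2RG: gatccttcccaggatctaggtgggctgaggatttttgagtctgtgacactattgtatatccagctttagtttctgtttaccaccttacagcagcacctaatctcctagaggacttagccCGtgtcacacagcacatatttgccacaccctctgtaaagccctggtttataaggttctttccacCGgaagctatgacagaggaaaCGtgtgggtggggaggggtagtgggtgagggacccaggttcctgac
MEIS1: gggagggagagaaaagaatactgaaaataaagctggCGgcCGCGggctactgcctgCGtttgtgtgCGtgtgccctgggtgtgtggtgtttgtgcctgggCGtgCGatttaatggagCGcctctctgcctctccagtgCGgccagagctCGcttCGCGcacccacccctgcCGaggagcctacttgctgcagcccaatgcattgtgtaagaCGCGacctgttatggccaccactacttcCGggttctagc
The windows hold 12, 29 and 14 CG in the genes that were higher in THP-1, and 0, 3 and 16 in those that were lower. Of the 15 largest higher genes, 8 are in the table and all 8 had at least 10 CG in this window, while 4 of the 9 matched lower genes did. The sets overlapped, with quartiles of 13.5 and 20.75 in the higher and 3 and 35 in the lower genes. The largest counts were those of RAP2A, TMEM163 and FLNA, lower in THP-1, at 45, 40 and 35. The share was 72.1% over the 12946 tested genes in the table and 51.9% over all 27305 promoters of this length. These are counts of letters and say nothing of methylation or of what binds there.

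The HOXA genes that such fusions keep on were present in both lines. HOXA9, a homeobox factor that sustains progenitors, read 8.63, 8.62 and 7.65 on the THP-1 arrays, against 8.92, 8.83 and 8.08 on the U937 arrays, and HL60 averaged 4.88. The THP-1 and U937 arrays overlapped and HOXA9 was not called (adjusted p = 0.491). HOXA11 at 7.77 against 8.04 and HOXA13 at 7.86 against 8.09, THP-1 against U937, were not called either. HOXA10 was lower in THP-1, at -0.72 ± 0.16 (SE, adjusted p = 0.00227), as were HOXA2, HOXA3, HOXA5 and HOXA6, at -1.13, -0.82, -0.84 and -0.55. HOXA2 was near background in both lines and HOXA3 in THP-1, and the HOXA6 arrays overlapped.

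The cofactors of HOXA9 differed far more. MEIS1, a homeobox partner of HOXA9 in leukaemia, read 3.70, 3.92 and 4.24 on the THP-1 arrays, against 9.74, 9.60 and 9.69 on the U937 arrays. It was near background in every THP-1 array and high in every U937 array, a difference of -5.72 ± 0.14 (SE, adjusted p = 4.37e-13). PBX3, another partner, went the opposite way and read 8.88, 8.91 and 8.82 on the THP-1 arrays, against 6.22, 6.36 and 6.36 on the U937 arrays. The PBX3 difference was 2.55 ± 0.17 (SE, adjusted p = 1.01e-08), and HL60 was at 5.58. ZNF521 read 8.97, 9.0 and 9.10 on the THP-1 arrays, against 3.48, 3.55 and 3.56 on the U937 arrays. Over the list of HOX, MEIS and fusion partner genes, 4 of 30 were higher and 6 lower, with a median of -0.13 and 33.3% called, close to the 27.2% of all genes. KMT2A at 7.39 against 7.40, DOT1L at 8.08 against 8.42 and MEN1 at 7.07 against 6.98 were not called, nor was the THP-1 fusion partner MLLT3 at 4.77 against 5.17, each THP-1 against U937.

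Myeloid transcription factors split between the lines, with 10 of 34 higher in THP-1 and 7 lower (50% called). IRF8, which directs progenitors to monocytes, read 12.0, 11.95 and 12.30 on the THP-1 arrays, against 9.37, 9.37 and 9.70 on the U937 arrays, a difference of 2.60 ± 0.43 (SE, adjusted p = 0.000193). TFEC, a MITF-family factor, differed by 2.42 ± 0.42 (SE, adjusted p = 0.000319), CEBPD by 1.53 ± 0.16 (SE, adjusted p = 1.72e-06), and the dominant-negative helix-loop-helix genes ID1 and ID3 by 1.30 and 1.07. BHLHE40 was lower in THP-1, at -2.09 ± 0.20 (SE, adjusted p = 4.17e-07) and its relative BHLHE41 by -1.40 ± 0.23 (SE, adjusted p = 0.000147). SPI1 (PU.1), a master factor of myeloid cells, was higher by 0.84 ± 0.19 (SE, adjusted p = 0.00286), and that call was lost in 2 of 15 alternative settings, the deposited scale among them. CEBPA at 9.16 against 8.68 and GFI1 at 9.07 against 8.98, THP-1 against U937, were not called. MYB, a progenitor factor, had nearly the same mean in both lines, 10.85 ± 0.03 in THP-1 and 10.84 ± 0.29 in U937, and the SE of the difference was 0.33.

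Surface receptors of monocytes were more often higher in THP-1, with 9 of 25 higher and 5 lower (56% called), although the list's median of 0.15 became -0.085 with the values as deposited. MS4A6A, a tetraspan membrane protein, read 10.43, 10.57 and 9.33 on the THP-1 arrays, against 5.73, 5.29 and 5.06 on the U937 arrays, a difference of 4.75 ± 0.36 (SE, adjusted p = 3.86e-08). The inhibitory receptor LILRB4 differed by 3.17 ± 0.26 (SE, adjusted p = 9.97e-08), and the Fc receptors FCGR1A by 2.47 ± 0.22 (SE, adjusted p = 2.73e-07) and FCGR2A by 1.67 ± 0.25 (SE, adjusted p = 6.16e-05). CSF1R, the receptor for macrophage colony-stimulating factor, read 7.15, 7.06 and 7.82 on the THP-1 arrays, against 5.43, 5.39 and 5.31 on the U937 arrays. CD14, the lipopolysaccharide co-receptor, differed less, with 6.47, 6.12 and 6.65 on the THP-1 arrays, against 5.34, 5.07 and 5.76 on the U937 arrays, and the groups did not overlap (adjusted p = 0.00346). MERTK, a receptor for dying cells, was the largest exception and read 4.58, 4.49 and 5.11 on the THP-1 arrays, against 8.48, 8.32 and 8.46 on the U937 arrays, a difference of -3.69 ± 0.18 (SE, adjusted p = 1.71e-10). CD36, FCN1, ADGRE1 and FCGR2B were lower in THP-1 too, at -1.75, -2.08, -1.40 and -1.25. ITGAM, the CD11b integrin chain, differed by 0.73 ± 0.36 (SE, adjusted p = 0.158) and was called with the array number as a block (adjusted p = 0.0212), with the THP-1 array numbered 3 the highest of its group, at 6.76.

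Primary granule proteins were the list with the highest median in the main setting, 1.12, with 8 of 13 higher in THP-1 and none lower (61.5% called). AZU1, azurocidin, read 11.99, 11.79 and 11.74 on the THP-1 arrays, against 8.66, 8.60 and 8.98 on the U937 arrays, a difference of 3.09 ± 0.20 (SE, adjusted p = 6.18e-09). PRTN3, proteinase 3, read 11.81, 11.52 and 12.09 on the THP-1 arrays, against 9.29, 9.48 and 10.42 on the U937 arrays, and ELANE, neutrophil elastase, read 12.37, 12.23 and 12.23 on the THP-1 arrays, against 10.67, 10.75 and 11.40 on the U937 arrays. The arrays of the lines did not overlap for AZU1, PRTN3 or ELANE. CFD, complement factor D, and SERPINB10 differed by 1.89 ± 0.19 (SE, adjusted p = 7.55e-07) and 1.94 ± 0.19 (SE, adjusted p = 7.68e-07). CTSG at 11.85 against 10.73, LYZ and SRGN at 11.30 against 11.18 were not called. Secondary granule genes are among the granulocyte markers, and of these LTF at 4.47 against 4.70, LCN2 at 5.19 against 5.35 and CAMP at 7.60 against 7.70 were not called, while CXCR2, the receptor for interleukin 8, was higher by 1.03 ± 0.21 (SE, adjusted p = 0.00104) and CSF3R, the receptor for granulocyte colony-stimulating factor, by 0.78 ± 0.24 (SE, adjusted p = 0.0247), a call lost in 9 of 15 alternative settings.

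Innate sensors showed differences in both directions. Of 21 Toll-like receptor and adaptor genes 7 were higher and 4 lower (52.4% called). TLR2 read 8.24, 8.36 and 8.19 on the THP-1 arrays, against 5.89, 5.95 and 5.83 on the U937 arrays, a difference of 2.38 ± 0.22 (SE, adjusted p = 4.23e-07). TLR1 and TLR6, which pair with TLR2 at the surface, were higher by 0.97 and 1.78, and both were near background in both lines. TLR4, the lipopolysaccharide receptor, was lower in THP-1, at -1.07 ± 0.20 (SE, adjusted p = 0.000606), and the shared adaptor MYD88 by -1.07 ± 0.13 (SE, adjusted p = 5.24e-06). In the inflammasome list 4 of 21 were higher and 3 lower, 33.3% called beside 27.2% of all genes. NLRP3 differed by 1.80 ± 0.19 (SE, adjusted p = 2.01e-06) and MEFV, pyrin, by 1.96 ± 0.21 (SE, adjusted p = 1.5e-06), while IL1B, interleukin 1 beta, read 4.72, 4.27 and 4.63 on the THP-1 arrays, against 7.07, 6.78 and 6.91 on the U937 arrays and IL18R1 differed by -2.65 ± 0.20 (SE, adjusted p = 2.94e-08).

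In the cytokine and chemokine list 8 of 31 genes were lower in THP-1 and 3 higher, 35.5% called beside 27.2% of all genes. Besides CCL2, the B cell survival factor TNFSF13B (BAFF) read 6.10, 5.94 and 5.51 on the THP-1 arrays, against 9.45, 8.82 and 8.85 on the U937 arrays, and VEGFA, the angiogenic factor, 6.18, 5.93 and 5.84 on the THP-1 arrays, against 8.39, 7.95 and 7.71 on the U937 arrays. TGFB1 differed by -1.38 ± 0.17 (SE, adjusted p = 1.14e-05) and TNF by -1.01 ± 0.22 (SE, adjusted p = 0.00242). Chemoattractant receptors were evenly split, 5 higher and 5 lower of 22 (45.5% called). CCR2, the receptor of CCL2, was among the higher ones and read 9.95, 9.99 and 9.37 on the THP-1 arrays, against 5.27, 5.10 and 4.67 on the U937 arrays. The ligand and its receptor thus lay on opposite sides, with CCR2 differing by 4.76 ± 0.36 (SE, adjusted p = 3.02e-08) and CCL2 by -4.61 ± 0.51 (SE, adjusted p = 2.51e-06). CX3CR1, the fractalkine receptor, was higher by 3.16 ± 0.32 (SE, adjusted p = 1.13e-06), while CXCR4 and the formyl peptide receptor FPR2 were lower, at -2.20 ± 0.21 (SE, adjusted p = 6.36e-07) and -2.31 ± 0.34 (SE, adjusted p = 5.69e-05).

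C-type lectins and Siglecs had the lowest median of the 36 lists in the main setting, -0.49, with 12 of 22 lower in THP-1 and 3 higher (68.2% called). The Siglecs, sialic acid-binding receptors, shared the direction: SIGLEC5, SIGLEC6, SIGLEC7, SIGLEC9, SIGLEC10 and SIGLEC12 were lower, at -1.34, -2.66, -1.92, -0.70, -0.80 and -2.41. These genes lie close together on chromosome 19 and are alike in sequence, so probe sets may read more than 1 of them. SIGLEC6 read 5.68, 5.63 and 5.81 on the THP-1 arrays, against 8.48, 8.23 and 8.38 on the U937 arrays. SIGLEC1, SIGLEC11 and CD33 were not called. CLEC11A, a secreted growth factor of progenitors, was higher in THP-1 by 1.83 ± 0.25 (SE, adjusted p = 3.05e-05), and CD302 by 1.80 ± 0.27 (SE, adjusted p = 5.93e-05).

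**Figure D2:**
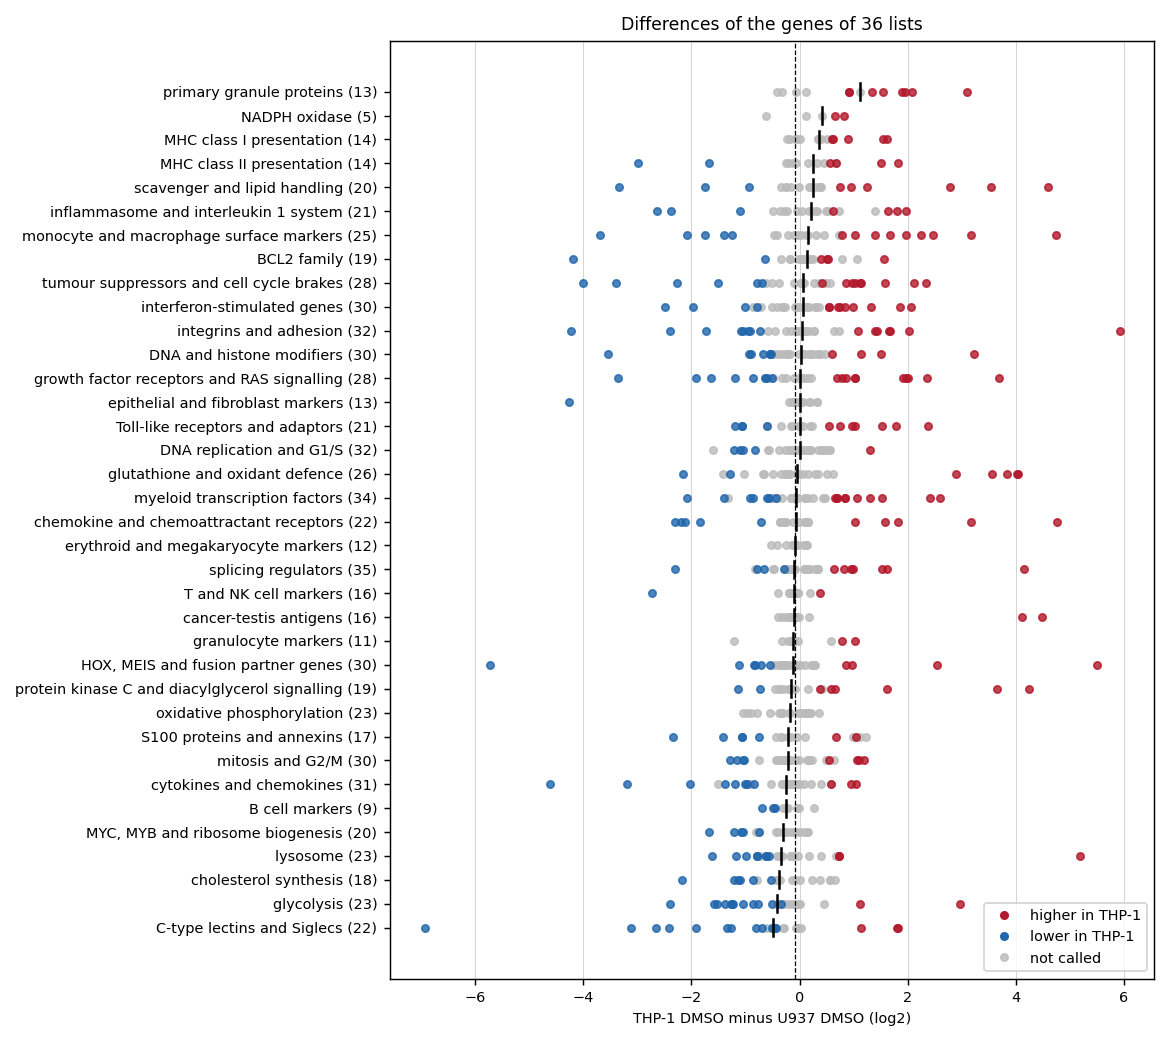
THP-1 DMSO minus U937 DMSO differences (log2) of each measured gene of 36 lists, with the number measured in brackets, ordered by the list's median (bar); the dashed line is the median over all 16267 genes, -0.08. Most lists straddle that line, with primary granule proteins at the top at 1.12 and C-type lectins and Siglecs at the bottom at -0.49.

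Of 28 growth factor receptor and RAS pathway genes 10 were higher in THP-1 and 8 lower (64.3% called). FLT3, the receptor tyrosine kinase of early progenitors, read 8.0, 8.07 and 7.49 on the THP-1 arrays, against 4.25, 4.12 and 4.12 on the U937 arrays, a difference of 3.69 ± 0.14 (SE, adjusted p = 1.94e-11). KIT, the stem cell factor receptor, read 6.29, 6.12 and 5.16 on the THP-1 arrays, against 3.37, 3.42 and 3.72 on the U937 arrays, and IL3RA, the interleukin 3 receptor alpha chain, differed by 1.91 ± 0.29 (SE, adjusted p = 8.38e-05). Both FLT3 and KIT were near background in U937. IGF1R, the insulin-like growth factor 1 receptor, went the other way and read 4.49, 4.33 and 4.99 on the THP-1 arrays, against 7.81, 7.77 and 8.30 on the U937 arrays, a difference of -3.36 ± 0.25 (SE, adjusted p = 3.59e-08), while INSR, the insulin receptor, was higher in THP-1 by 0.86 ± 0.31 (SE, adjusted p = 0.0483). JAK2, the kinase of many cytokine receptors, differed by 2.01 ± 0.18 (SE, adjusted p = 3.18e-07). PIM1, SOCS2 and STAT5A, a kinase, a feedback inhibitor and a transcription factor on the JAK-STAT route, were lower, at -1.92, -1.65 and -1.19.

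Antigen presentation genes were called at shares of 35.7% for MHC class I and 42.9% for class II, beside 27.2% of all genes. Of 14 MHC class I genes 5 were higher and none lower, among them the immunoproteasome subunits PSMB9 and PSMB10, by 1.54 ± 0.21 (SE, adjusted p = 2.38e-05) and 1.61 ± 0.29 (SE, adjusted p = 0.000435). PSMB9 read 9.14, 9.23 and 8.85 on the THP-1 arrays, against 7.90, 7.55 and 7.17 on the U937 arrays. The calls of TAPBP and TAP2, 0.90 and 0.62, were lost with the values as deposited (adjusted p = 0.079 and 0.162). Of 14 MHC class II genes 4 were higher and 2 lower. CD74, the invariant chain, read 8.64, 8.54 and 8.40 on the THP-1 arrays, against 7.10, 6.82 and 6.19 on the U937 arrays, and HLA-DRA differed by 1.51 ± 0.22 (SE, adjusted p = 6.08e-05) with both lines at low levels, 5.32 against 3.81, THP-1 against U937. CIITA, the class II transactivator, was not called, at 5.03 against 5.09. IFI30, a lysosomal thiol reductase, was lower in THP-1, at -3.0 ± 0.27 (SE, adjusted p = 2.36e-07). Interferon-stimulated genes, 43.3% of them called, did not move as 1 group: 9 of 30 were higher, such as IFI35 by 2.06 ± 0.37 (SE, adjusted p = 0.00039), and 4 lower, such as IFI16, a DNA sensor, by -2.49 ± 0.39 (SE, adjusted p = 0.000108) and MX2 by -1.96 ± 0.16 (SE, adjusted p = 6.58e-08).

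Several genes that restrain growth, modify chromatin or hold the cytoskeleton were far lower in THP-1 than in U937 and HL60. MTAP, methylthioadenosine phosphorylase, read 3.70, 3.46 and 3.82 on the THP-1 arrays, against 7.72, 7.72 and 7.55 on the U937 arrays, and HL60 averaged 7.43. CDKN2A, which encodes the p16 and ARF proteins next to MTAP on chromosome 9, read 5.34, 5.37 and 5.70 on the THP-1 arrays, against 7.62, 7.74 and 7.84 on the U937 arrays. The differences were -4.01 ± 0.15 (SE, adjusted p = 1.23e-11) and -2.27 ± 0.15 (SE, adjusted p = 9.62e-09), and KLHL9, 4 measured genes from MTAP, differed by -3.70 ± 0.24 (SE, adjusted p = 6.81e-09). CDKN2B differed by -0.79 ± 0.17 (SE, adjusted p = 0.00146), while the interferon genes and IFNE between KLHL9 and MTAP were near background in all 3 lines. KDM6A, the X-linked H3K27 demethylase UTX, read 3.39, 3.56 and 3.58 on the THP-1 arrays, against 7.14, 7.03 and 6.99 on the U937 arrays, a difference of -3.55 ± 0.15 (SE, adjusted p = 4.34e-11), with HL60 at 7.15. FUNDC1, 2 measured genes away on the X chromosome, differed by -3.74 ± 0.44 (SE, adjusted p = 5.24e-06). Of the genes around them, NDP, EFHC2, DUSP21 and DIPK2B were near background in all 3 lines and were not called. Above background, KRABD4 was not called, at 0.18, and CHST7 and RP2 were lower in THP-1, at -0.66 and -0.53. FLNA, filamin A, an actin crosslinker, read 5.59, 5.35 and 5.64 on the THP-1 arrays, against 10.76, 10.69 and 11.27 on the U937 arrays, and its neighbour EMD, emerin, 4.35, 4.28 and 5.02 on the THP-1 arrays, against 8.07, 8.44 and 8.33 on the U937 arrays. FLNA differed by -5.38 ± 0.25 (SE, adjusted p = 1.22e-10) and EMD by -3.73 ± 0.18 (SE, adjusted p = 1.64e-10), whereas RPL10, next to EMD, differed by -0.34 and was not called.

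The probe sets within these genes were not shifted alike. Tested were those with a mean over all 18 arrays above background. These were 26 of 42 in KDM6A, 13 of 18 in MTAP, all 51 in FLNA and 12 of 13 in CDKN2A. Those near background in THP-1 passed through the other lines, so the counts depend on this filter. In KDM6A 20 of the 26 tested probe sets were at least 2 units lower in THP-1, with medians of 2.99 in THP-1 and 7.62 in U937, and the other 6 differed by less than 1 unit, at 7.15 to 10.21 in THP-1 and 7.10 to 10.24 in U937. In MTAP the split was 11 of 13 against 2, with the 11 at medians of 3.15 in THP-1 and 8.23 in U937. In FLNA 48 of 51 were at least 2 units lower and 1 differed by less than 1 unit. In CDKN2A 5 of 12 were at least 2 units lower and 5 differed by less than 1 unit. Other brakes of the cell cycle differed in both directions: CDKN2C (p18) was higher in THP-1 by 2.11 ± 0.27 (SE, adjusted p = 1.63e-05) and CDKN1B (p27) lower, at -1.51 ± 0.34 (SE, adjusted p = 0.00286). CDKN1A (p21) was not called, at 6.59 against 6.52, THP-1 against U937. CCND2, cyclin D2, read 4.85, 4.83 and 5.06 on the THP-1 arrays, against 7.89, 8.10 and 8.96 on the U937 arrays. WT1, a zinc finger factor high in many leukaemias, was higher in THP-1 by 2.35 ± 0.15 (SE, adjusted p = 5.21e-09).

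The reverse case, neighbouring genes all higher in THP-1, was most extensive on chromosome 1. In RefSeq gene order, 22 measured genes in a row from PPIE to SCMH1 were called higher. All 22 had non-overlapping arrays, as had 2171 of the 2184 genes called higher in THP-1 anywhere. Their differences ran from 0.50 to 4.36 with a median of 2.03. The median of their means was 9.75 in THP-1 and 7.61 in U937, with HL60 at 7.34. CAP1, an actin regulator, read 12.69, 12.81 and 12.88 on the THP-1 arrays, against 10.68, 10.76 and 10.81 on the U937 arrays. PPT1, a lysosomal thioesterase, read 12.70, 12.70 and 12.68 on the THP-1 arrays, against 10.65, 10.73 and 10.87 on the U937 arrays, and EXO5, a DNA exonuclease, read 10.47, 10.56 and 10.11 on the THP-1 arrays, against 6.20, 6.24 and 5.63 on the U937 arrays. The largest differences were those of EXO5 at 4.36, the zinc finger gene ZFP69 at 4.35 and ZNF684 at 3.83, and the smallest were those of SLFNL1 at 0.50 and MYCL at 0.67. The shift went on past the run, with 3 of the 8 genes before it and 5 of the 8 after it higher and none lower, including PPCS at 2.26 and HIVEP3 at 2.17. Over chromosome 1 as a whole 17.3% of genes were higher, against 13.4% of all genes. 

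**Figure D3:**
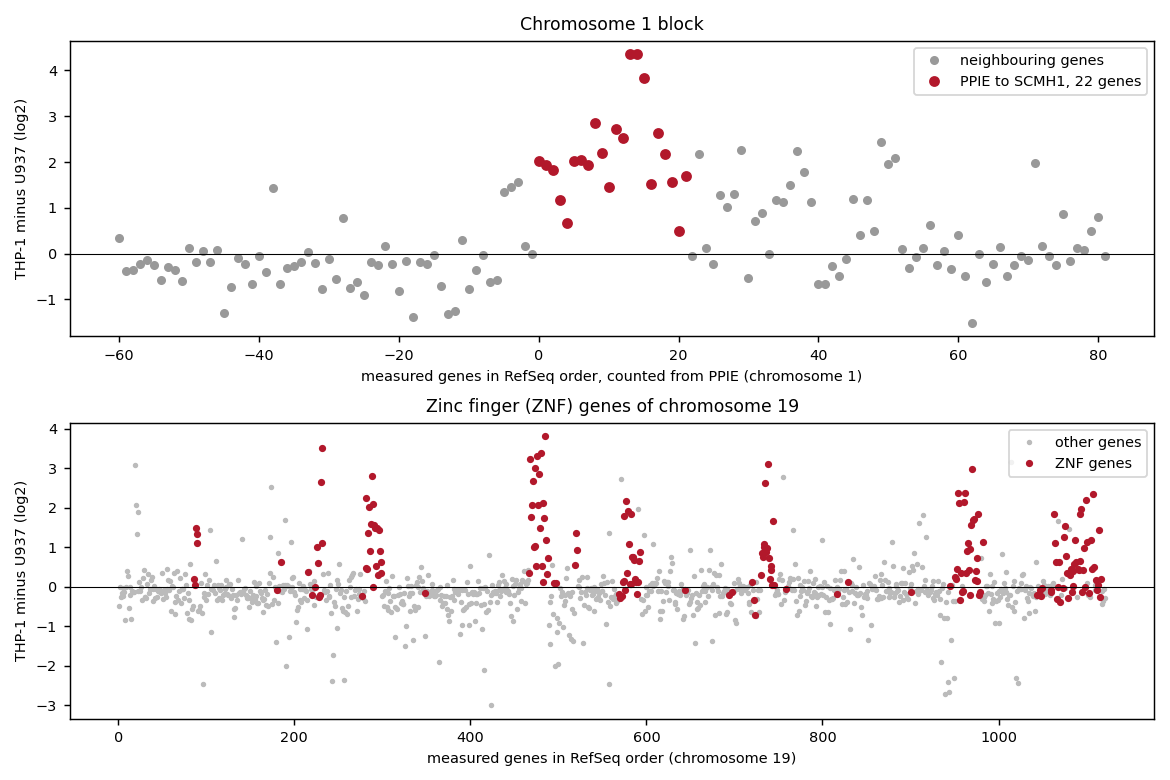
THP-1 DMSO minus U937 DMSO differences (log2) of single genes in RefSeq order. Above, the 22 genes from PPIE to SCMH1 on chromosome 1 and 60 genes on each side; the 22 lie between 0.50 and 4.36 while most genes before them lie near 0. Below, all measured genes of chromosome 19, with the ZNF genes in red in clusters that reach above 3 and almost none below -0.5.

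Zinc finger genes of chromosome 19 were often higher in THP-1. Of the 194 measured genes named ZNF with a number on chromosome 19, most of which encode repressors with a KRAB domain, 99 (51.0%) were higher in THP-1, 1, ZNF71, was lower, at -0.39 on the log2 scale and 94 were not called. Of the other 927 genes of that chromosome 6.04% were higher. The 223 ZNF genes of other chromosomes had 63 higher (28.3%) and 25 lower. The medians of the chromosome 19 ZNF genes were 6.30 in THP-1 and 5.27 in U937, and HL60 was at 6.36, near THP-1. These genes were counted together after the runs of neighbours had been seen, and they are alike in sequence, so some probe sets may read several of them. 1 run held ZNF738, ZNF493, ZNF429, ZNF100, ZNF43, ZNF208 and ZNF257, with a median difference of 2.12. ZNF43 read 6.53, 6.59 and 5.96 on the THP-1 arrays, against 2.92, 3.01 and 2.99 on the U937 arrays, a difference of 3.38 ± 0.22 (SE, adjusted p = 5.07e-09). With PMA 70 of the 194 were higher in THP-1 and 6 lower, with a median of 0.26 and of 0.52 with DMSO.

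GSTM genes of chromosome 1 were another such group. GSTM3, a glutathione transferase, read 7.92, 7.92 and 6.67 on the THP-1 arrays, against 3.43, 3.48 and 3.45 on the U937 arrays, GSTM1 read 8.99, 8.90 and 8.43 on the THP-1 arrays, against 5.30, 5.07 and 5.29 on the U937 arrays, and GSTM4 read 7.76, 7.75 and 7.30 on the THP-1 arrays, against 3.74, 3.50 and 4.04 on the U937 arrays. GSTM2 and GSTM5 in the same cluster differed by 2.89 ± 0.20 (SE, adjusted p = 1.21e-08) and 0.63 ± 0.11 (SE, adjusted p = 0.000471), and these genes too are close copies. The run ended with EPS8L3, next to GSTM3, at 0.40 ± 0.13 (SE, adjusted p = 0.0321). AMPD2 on one side of the run and CSF1 on the other were not called, at -0.09 and 0.20. The promoter windows of ZNF43 (chr19:21836183-21836432, minus strand) and GSTM3 (chr1:109741039-109741288, minus strand) are shown as members of groups that moved together, again with CG in capitals.
ZNF43: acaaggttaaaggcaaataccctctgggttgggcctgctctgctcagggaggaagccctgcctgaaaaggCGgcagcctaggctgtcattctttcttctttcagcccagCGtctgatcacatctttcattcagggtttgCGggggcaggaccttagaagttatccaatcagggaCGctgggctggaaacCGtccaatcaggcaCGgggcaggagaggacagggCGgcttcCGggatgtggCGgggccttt
GSTM3: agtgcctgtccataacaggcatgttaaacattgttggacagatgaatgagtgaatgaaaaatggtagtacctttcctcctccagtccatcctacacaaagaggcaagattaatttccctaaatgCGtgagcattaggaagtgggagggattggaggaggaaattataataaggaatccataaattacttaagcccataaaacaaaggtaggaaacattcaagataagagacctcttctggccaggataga
They hold 9 and 1 CG. Among the chromosome 19 ZNF genes in the promoter table, the median number of CG was 15 for the 83 that were higher in THP-1 and 18 for the 80 not called, and 78.3% and 95% of them had at least 10.

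On chromosome 10 more genes were lower than higher in THP-1. Of its 607 measured genes 36.2% were lower in THP-1 and 7.25% higher, with a median of -0.338, against 13.8% lower over all genes. In 1 run of 8 neighbours from COX15 to BLOC1S2 the differences were -1.66 to -0.98. CHUK, the IKK alpha kinase, lies in that run and read 6.77, 6.84 and 6.79 on the THP-1 arrays, against 8.01, 8.14 and 7.90 on the U937 arrays. No other chromosome had more than 25.7% of its genes lower.

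Central metabolism was lower in THP-1 at several steps of glycolysis, with 12 of 23 genes lower and 2 higher (60.9% called) and a median of -0.41. HK2, hexokinase 2, read 7.0, 7.0 and 7.16 on the THP-1 arrays, against 8.51, 8.47 and 8.93 on the U937 arrays. GPI, PFKP and PKM, further enzymes of the pathway, differed by -1.38 ± 0.12 (SE, adjusted p = 2.33e-07), -1.26 ± 0.15 (SE, adjusted p = 4.51e-06) and -1.25 ± 0.13 (SE, adjusted p = 1.22e-06). The glucose transporters were opposed: SLC2A3 (GLUT3) was lower, at -2.40 ± 0.24 (SE, adjusted p = 7.85e-07) and SLC2A1 (GLUT1) higher by 1.12 ± 0.14 (SE, adjusted p = 1.34e-05). FBP1, which runs the pathway backwards, was higher by 2.97 ± 0.28 (SE, adjusted p = 5.4e-07). LDHA and LDHB were not called. None of 23 oxidative phosphorylation genes was called in limma's test, against 27.2% of all genes, and 2 had an unadjusted p under 0.05. In the cholesterol list 6 of 18 (33.3%, beside 27.2% of all genes) were lower and none higher, led by DHCR7 with -2.17 ± 0.27 (SE, adjusted p = 8.79e-06).

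Of 32 replication genes 1 was higher and 4 lower, and of 30 mitosis genes 4 were higher and 4 lower, shares of 15.6% and 26.7% beside 27.2% of all genes. TK1, thymidine kinase, was higher by 1.31 ± 0.23 (SE, adjusted p = 0.000283), and POLA1 and RRM2 lower, at -1.21 ± 0.19 (SE, adjusted p = 0.000118) and -1.10 ± 0.19 (SE, adjusted p = 0.000351). Of 20 genes of MYC, MYB and ribosome biogenesis 5 were lower and none higher, 25% called beside 27.2% of all genes. NOLC1, a nucleolar protein of chromosome 10, was lower, at -1.68 ± 0.19 (SE, adjusted p = 2.69e-06). MYC itself was not called, at -0.44 ± 0.31 (SE, adjusted p = 0.346). In the BCL2 family, BCL2A1 read 4.15, 4.02 and 3.67 on the THP-1 arrays, against 8.84, 8.81 and 6.74 on the U937 arrays, and BCL2 was higher in THP-1 by 1.56 ± 0.16 (SE, adjusted p = 1.48e-06). BCL2A1 thus differed by -4.19 ± 0.67 (SE, adjusted p = 0.000133).

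The lines also differed in the enzymes through which PMA acts. PRKCA, protein kinase C alpha, read 7.17, 7.39 and 7.64 on the THP-1 arrays, against 3.65, 3.70 and 3.88 on the U937 arrays, and PRKD3, protein kinase D3, a target of protein kinase C, read 6.86, 6.96 and 6.60 on the THP-1 arrays, against 2.68, 2.32 and 2.71 on the U937 arrays. Both were near background in U937, with differences of 3.66 ± 0.22 (SE, adjusted p = 2.5e-09) and 4.24 ± 0.24 (SE, adjusted p = 1.25e-09), and both were present in HL60, at 7.90 and 6.53. PRKCH was higher by 1.62 ± 0.19 (SE, adjusted p = 4.75e-06) and PRKCQ lower, at -1.14 ± 0.14 (SE, adjusted p = 5.64e-06). Of the 19 genes of the list 6 were higher and 2 lower (42.1% called).

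Of 35 splicing regulators 7 were higher and 4 lower, a share of 31.4% called, close to the 27.2% of all genes. HNRNPLL, which controls CD45 exon choice in lymphocytes, read 7.97, 8.14 and 7.0 on the THP-1 arrays, against 3.52, 3.55 and 3.59 on the U937 arrays. MBNL2 was lower, at -2.31 ± 0.15 (SE, adjusted p = 4.91e-09) and QKI higher by 1.52 ± 0.13 (SE, adjusted p = 1.81e-07). ESRP1, an epithelial splicing factor, differed by 1.62 ± 0.14 (SE, adjusted p = 1.58e-07) from a level near background in U937.

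Exon usage was tested on 175114 probe sets above background in 11978 genes, as the difference of a probe set from the rest of its gene. Of these 4216 (2.41%) were called at an adjusted p under 0.05 and at least 1 log2 unit, 2134 relatively higher (1.22%) and 2082 relatively lower (1.19%) in THP-1. Of the 9939 tested genes above background in both lines 1171 (11.8%) had at least 1 call. On simulated data this test called 231 unchanged probe sets of 45214, and 5 when a second method, the splicing index, also had to call it. No whole gene differed between the groups there, so false calls in genes that differ strongly were not tested. The simulated noise was also independent between probe sets and arrays. Of the 4216 calls, 1807 lay in genes that were not above background in both lines. By both methods 3308 probe sets were called in the same direction, of which 1801 lay in 856 genes above background in both lines, and 205 of these genes had no call of their own. LAPTM4A, a lysosomal membrane protein, was 1 such gene. Its probe set 2542747 read 7.81, 8.18 and 6.69 on the THP-1 arrays, against 2.52, 1.78 and 2.61 on the U937 arrays, while the gene was at 9.12 against 9.43. This probe set differed from the rest of the gene by 6.19 (adjusted p = 1.36e-09), and the other 9 were not called. RBM12B, an RNA-binding protein, had 1 call among 10 probe sets and USP24, a deubiquitinase, 1 among 19. The RBM12B probe set 3144774 read 8.98, 9.03 and 9.10 on the THP-1 arrays, against 3.39, 4.08 and 4.67 on the U937 arrays, and the USP24 probe set 2413969 read 2.75, 4.32 and 2.85 on the THP-1 arrays, against 8.54, 8.49 and 9.01 on the U937 arrays. RNF220, a ubiquitin ligase, had calls in 20 of its 22 probe sets, led by probe set 2333921 with 4.05, 4.02 and 2.64 on the THP-1 arrays, against 11.43, 10.88 and 11.40 on the U937 arrays. The 8 largest called differences in each direction were taken among genes above background in both lines, with 1 probe set per gene. The remaining probe sets of these lay in BHLHE22, BEX3, PERP, SGPP1, IL32 and FLNA, relatively higher in THP-1 by 4.70 to 5.68, and in CD81, FCN1, SERPINB2, SESN3, CDKN2A and PPA2, relatively lower, at -5.84 to -4.44. In SGPP1 and PPA2 it was the only probe set called, whereas BHLHE22 had 10 of 12 and SERPINB2 9 of 12. Of these genes only PPA2 had no call as a gene. In CD81, SESN3, FLNA and IL32 the gene was called, but the probe set itself differed by under 1 unit. THP-1 means were 8.71, 8.56, 10.35 and 4.82, against 8.52, 8.21, 11.13 and 5.3 in U937. Whether the CD81, SESN3, FLNA and IL32 calls reflect exon choice was not tested. In the other genes the probe set itself differed by over 1 unit. The PPA2 probe set read 3.19, 4.07 and 2.11 on the THP-1 arrays, against 8.7, 8.34 and 4.66 on the U937 arrays.

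In MLLT10, the gene that the U937 fusion joins, probe sets differed in direction. They are ordered by number, since their positions in the gene were not known. The cut after the 4 lowest numbers was set by hand and not by a test, and a link to the fusion was not tested. As a gene MLLT10 averaged 6.86 ± 0.33 in THP-1 and 5.89 ± 0.14 in U937, a difference of 0.97 ± 0.23 (SE, adjusted p = 0.00355), lost with the values as deposited (adjusted p = 0.0573). The 4 probe sets with the lowest numbers were all lower in THP-1, by 0.34 to 1.45, with a median of 6.87 in THP-1 and 7.82 in U937. Of the other 27 only 1 was lower in THP-1, with a median difference of 1.22. HL60 had medians of 6.70 over the first 4 and 7.67 over the others, on the THP-1 side of both. Of the 4, 3 were called by the exon usage test. Neither the exon usage test nor the splicing index called any of the 54 probe sets of KMT2A, of which 2 had an unadjusted p under 0.05, and whose differences from the rest of the gene ran from -0.87 to 0.93. MLLT3 was not tested for exon usage. Neither method called a probe set in HOXA9, MYB, CIITA or SPI1, where 0, 0, 1 and 1 had an unadjusted p under 0.05, and CSF1R had 12 among 35.

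**Figure D4:**
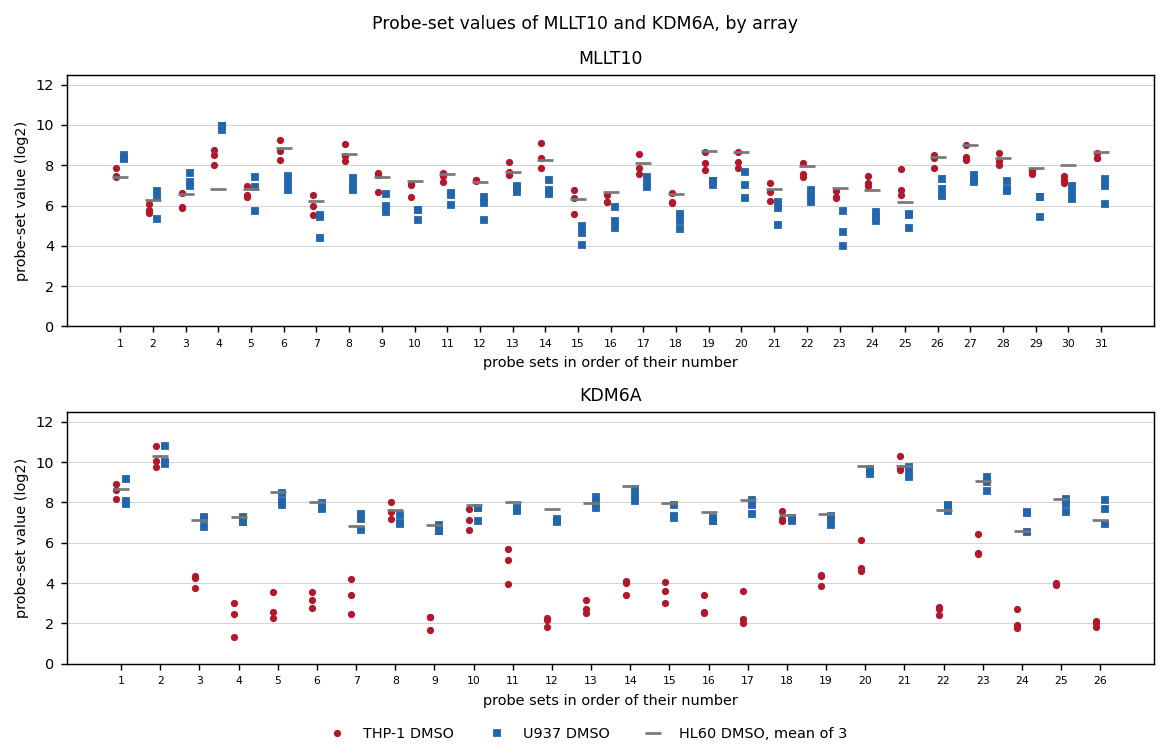
Probe-set values (log2) of MLLT10 and KDM6A in order of probe-set number, on each of the 3 THP-1 DMSO (circles) and 3 U937 DMSO arrays (squares), with the HL60 DMSO mean (dashes). In MLLT10 the 4 lowest-numbered probe sets are lower in THP-1 and nearly all others higher. In KDM6A 20 of the 26 tested probe sets have a median of 2.99 in THP-1 while 6 differ by less than 1 unit.

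HL60 was set beside both lines. Of the 2184 genes higher in THP-1, HL60 lay nearer to THP-1 for 892, and of the 2245 lower in THP-1, nearer to THP-1 for 1287. Since these counts use the same THP-1 and U937 arrays as the calls, they are a description. Examples of U937 alone being low are SDCBP, CD81, LPL and PRKCA, and examples of THP-1 alone being low are FLNA, MTAP and KDM6A. LPL, lipoprotein lipase, read 8.92, 8.80 and 8.47 on the THP-1 arrays, against 4.10, 4.23 and 4.07 on the U937 arrays, with HL60 at 8.35.

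The difference between the lines was measured again after 3 days of PMA, on arrays of their own. As deposited, the U937 PMA array numbered 2 held 83228 distinct values, against 216637 and 215699 on numbers 1 and 3. Its median, 6.18, was the lowest of the series. With PMA 4805 genes (29.5%) differed, 2345 higher (14.4%) and 2460 lower (15.1%) in THP-1. Of the 2184 genes higher with DMSO 1399 (64.1%) were higher with PMA too, which is 59.7% of those higher with PMA. Of the 2245 lower ones 1392 (62.0%) were lower with PMA, or 56.6% of that list. The direction was opposite in 79. The difference itself changed with PMA in 1394 genes (8.57%), 699 (4.3%) towards THP-1 and 695 (4.27%) towards U937. SDCBP, at 7.29, FLNA, at -6.27, and PRKCA, at 3.98, differed about as widely with PMA, and their change was not called.

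Several of the largest differences narrowed. RUBCNL read 8.19, 8.55 and 8.77 on the THP-1 PMA arrays, against 5.90, 5.59 and 5.78 on the U937 PMA arrays, so that the difference was 2.75 with PMA and 6.08 with DMSO, a change of -3.33 ± 0.24 (SE, adjusted p = 3.38e-07). MEIS1 and CLECL1 narrowed from the other side, to -3.84 and -3.30. IL1B differed by -0.01 with PMA and -2.38 with DMSO, a change of 2.37 ± 0.37 (SE, adjusted p = 0.000453), with both lines at 11.08 to 11.09. CCL2 widened and read 4.96, 4.35 and 3.93 on the THP-1 PMA arrays, against 11.91, 12.09 and 11.81 on the U937 PMA arrays, a difference of -7.52. CTSL and LPL widened in favour of THP-1, to 7.77 and 6.77.

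Other genes differed only after treatment by the tests made here. MSR1, the class A scavenger receptor of macrophages, was near background in both lines with DMSO, at 3.19 against 2.89, THP-1 against U937. With PMA it read 10.08, 10.74 and 10.30 on the THP-1 PMA arrays, against 2.86, 2.69 and 3.0 on the U937 PMA arrays, and the change of the difference was 7.22 ± 0.35 (SE, adjusted p = 2.91e-09). AQP9, a water and glycerol channel, was likewise near background with DMSO and read 2.98, 3.11 and 3.27 on the THP-1 PMA arrays, against 9.68, 8.47 and 10.21 on the U937 PMA arrays, a change of -6.18 ± 0.52 (SE, adjusted p = 1.85e-06). LBH and the adenylyl cyclase ADCY8 changed towards THP-1, by 4.93 and 4.61. The matrix protease MMP7, the chemokine CCL7 and the receptor GPR34 changed towards U937, by -5.24, -5.08 and -5.35. GPR34 was not called with DMSO, but was with the array number as a block.

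**Figure D5:**
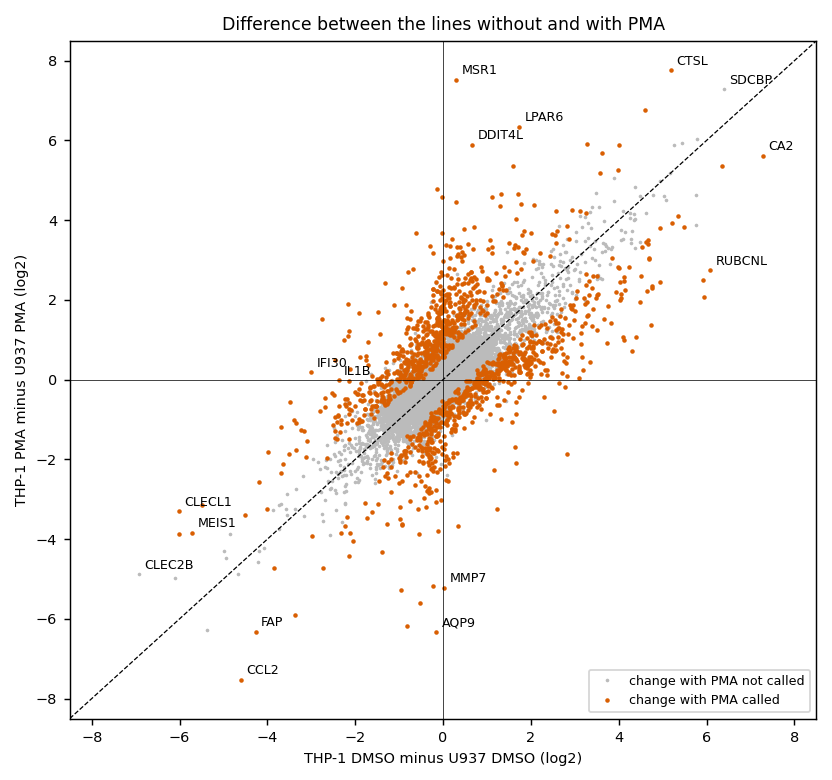
Difference between THP-1 and U937 (log2) of each gene with PMA (vertical) and with DMSO (horizontal); orange points are the 1394 genes whose change of the difference with PMA was called, and the dashed line marks equal differences. CLEC2B and SDCBP keep differences of over 4 units in both states, while MSR1 and AQP9 lie near 0 with DMSO and beyond 6 units on opposite sides with PMA.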

How the data were processed

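Total RNA of 18 samples was hybridized to 1 Affymetrix human exon array each. The authors deposited log2 probe-set values, processed with Affymetrix Expression Console per the submitters' processing notes; its version and the background step are not stated there. Of 287329 probe sets, 261273 had 1 gene symbol in the platform annotation, 9155 several and 16901 none, and only the first kind was used. Of 16941 symbols, 14546 were current in RefSeq, 2260 were updated and 135 were kept. All 18 arrays were quantile normalized, a gene was the mean of its probe sets (median 13), and 674 symbols with fewer than 3 were left out. The number of arrays limits the precision, with a median SE of 0.177 log2 units.

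Genes were tested with limma 3.58.1 in R 4.3.3 over 6 group means, with 12 residual degrees of freedom and Benjamini-Hochberg adjustment over all 16267 genes at 0.05. Exon usage used limma's exon usage test, with the splicing index as a second method. On simulated data over 16267 genes, 7, 37, 49 and 50 of 50 genes changed by 0.5, 1, 2 and 4 log2 units were recovered, with 9 false calls. For exon usage, 189 of 200 probe sets changed by 3 log2 units, in genes otherwise alike in all groups, were recovered by limma's test and 163 by both methods. In both simulations the noise was independent for each gene or probe set and each array. Shifts shared by a whole array were not simulated, so false calls from such shifts were not tested.

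The comparison, its members and the gene lists were chosen with earlier results of these data known, although the arrays themselves follow from their titles. The text names the 15 largest differences in each direction among called genes whose arrays did not overlap between the lines. It also names up to 4 called genes per list, 20 fixed genes, the 5 largest changes with PMA in each direction and the 8 largest exon usage differences in each direction. The exon usage differences were taken in genes above background in both lines, 1 probe set per gene. Further genes, such as list members not called, neighbours of a named gene and the chromosome 1 and 19 runs, were chosen after their values were seen. Same-numbered arrays of the lines deviated together (r = 0.526, 0.482 and 0.759), so the numbers were also used as a block, although for numbers 1 and 2 the crossed pairs correlated as highly (0.502 and 0.61). Alternatives were the deposited scale, median centring, probe-set medians, a level filter, only the 6 arrays, the block and leaving out arrays.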

Additional observations from a re-analysis of the deposited data

Results flagged for a closer look

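The difference between THP-1 and U937 changed with PMA, by the test of the change itself, in 1394 genes, among them 67 of the named ones. Every value here is that change on the log2 scale, PMA minus DMSO, so that a positive one is a move towards THP-1.

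Most named genes were chosen for their DMSO difference, which favours a smaller difference with PMA, so no tendency is read from their directions. Over all genes 699 moved towards THP-1 and 695 towards U937. A first group was higher in THP-1 with DMSO and had a smaller difference with PMA. The change was -3.87 for MCOLN2, -3.42 for NCAM2, -3.33 for RUBCNL, -2.45 for MS4A6A, -2.41 for CCR2 and -2.13 for TLR2. The change was -2.03 for SERPINB10, -1.99 for GSTM3, -1.92 for FBP1, -1.91 for HNRNPLL, -1.82 for LILRB4, -1.75 for FCGR1A, -1.69 for ESRP1 and -1.67 for CA2. The others of this kind moved by -1.66 for ZNF521, -1.64 for MAGEB2, -1.56 for MEFV, -1.43 for CFD, -1.42 for MLLT10, -1.40 for PRKD3, -1.33 for HLA-DRA and -1.29 for ADGRL3, and by -1.24 for ALX1, -1.23 for APOC1, -1.22 for GPX7, -1.01 for ADGRL2, -0.89 for JAK2, -0.80 for HDAC4 and -0.78 for CEBPD. A wider gap in favour of THP-1 was measured for lipoprotein lipase, cathepsin L, CD14 and others, with 5.23 for DDIT4L, 4.61 for LPAR6, 2.58 for CTSL, 2.25 for CD14 and 2.17 for LPL.

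A second group was lower in THP-1 with DMSO and had a smaller difference with PMA. The change was 3.18 for IFI30, 2.71 for CLECL1, 2.50 for MERTK, 2.39 for CCND2, 2.37 for CLEC2A and 2.37 for IL1B, then 2.24 for GPNMB, 2.15 for IL2RG, 2.12 for IFI16, 1.87 for MEIS1, 1.48 for ICAM1 and 1.46 for TGFB1, and 1.19 for CLEC12B, 1.11 for TMEM163, 0.96 for CTSD, 0.93 for SIGLEC12 and 0.75 for MTAP. The gap widened on the U937 side with -2.92 for CCL2, -2.06 for FAP, -1.64 for NPC1 and -0.80 for IRAK2.

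For named genes not called with DMSO the difference was larger with PMA, in either direction. Towards THP-1 the change was 7.22 for MSR1, 4.92 for LBH, 4.61 for ADCY8 and 1.34 for MLLT3. Towards U937 it was -6.18 for AQP9, -5.35 for GPR34, -5.24 for MMP7, -5.08 for CCL7 and -4.95 for TM4SF1. The remaining changes were 1.73 for S100A10, -1.46 for CSF3R and 1.16 for EBF1.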

How the results depend on the processing

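Of the 168 named genes, 152 were called, 133 of them under each of the 15 alternatives they could be tested in, and no called difference reversed. Some differences that were not called changed sign between settings, such as MYB (-0.263 to 0.167) and HOXA9 (-0.585 to 0.014). The deposited scale gave 1227 genes higher in THP-1, and the change with PMA was then called in 774. Raising the level filter for exon usage to above the median left 1934 probe sets, with fewer probe sets tested. Leaving out 1 DMSO array at a time gave 1862 to 2034 genes higher and 1792 to 2029 lower in THP-1, 3654 to 4060 in all, 1093 to 1259 with a called change and 2969 to 3651 probe sets. With the array number as a replicate block 5353 genes were called (2533 higher and 2820 lower), 5732 with PMA, 1828 for the change and 5324 probe sets. A block over the 12 THP-1 and U937 arrays, chosen after seeing the data, gave 5721, 6133 and 2012 genes. The block moved no count by over 1.5 times, called ITGAM and GPR34, and, over the 12 arrays, MYC (adjusted p = 0.0297). Without the DMSO arrays numbered 3, also chosen after seeing the data, 3543 genes and 1101 changes were called, and without the U937 arrays numbered 2, 3636 genes, 3913 with PMA and 997 changes. Near-background genes have no reliable order, so a fold against them is on the compressed array scale.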

Other observations

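Cancer-testis antigens, germline genes that tumours can switch on, were mostly near background. Of these 16 genes 2 were called, a smaller share than among all genes. PRAME read 8.67, 8.69 and 8.73 on the THP-1 arrays, against 4.11, 4.31 and 4.19 on the U937 arrays, and MAGEB2 read 8.03, 8.22 and 7.08 on the THP-1 arrays, against 3.52, 3.41 and 4.04 on the U937 arrays. The differences were 4.49 ± 0.14 (SE, adjusted p = 2.89e-12) and 4.12 ± 0.34 (SE, adjusted p = 8.05e-08), with HL60 at 9.02 and 5.45. In the lysosome list 8 of 23 genes were lower in THP-1 and 3 higher (47.8% called). The protease genes were divided: CTSD, cathepsin D, was lower, at -1.63 ± 0.18 (SE, adjusted p = 2.92e-06), while CTSK, cathepsin K, was higher by 0.73 ± 0.14 (SE, adjusted p = 0.000781). NPC1, which moves cholesterol out of lysosomes, was lower, at -1.19 ± 0.17 (SE, adjusted p = 4.83e-05).

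Integrins and adhesion genes had 7 of 32 higher and 8 lower, 46.9% called beside 27.2% of all genes. ITGAX, the CD11c chain, and ITGAV, the alpha V chain, were higher in THP-1, by 1.39 ± 0.25 (SE, adjusted p = 0.000468) and 1.09 ± 0.20 (SE, adjusted p = 6e-04). ICAM1, the ligand of leukocyte integrins, was lower, at -2.39 ± 0.18 (SE, adjusted p = 2.97e-08). In the scavenger and lipid list 6 of 20 were higher and 3 lower (45% called), with APOC1, an apolipoprotein, higher by 2.78 ± 0.19 (SE, adjusted p = 1.16e-08) and GPNMB, a glycoprotein of macrophages, lower, at -3.34 ± 0.25 (SE, adjusted p = 3.02e-08). Clustered protocadherins of chromosome 5, cell adhesion genes of neurons, gave a run of 6 neighbours higher in THP-1 from PCDHB2 to PCDHB17P, with a median of 2.29. They are close copies, so probe sets may read several of them.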
